A study of Mus musculus with 2 samples.

Results

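The 40 genes described here carry a cell through mitosis: the kinases and cyclins that start it, the proteins of the centromere and kinetochore, the spindle motors, the spindle checkpoint, and the proteins that separate the chromatids and divide the cell. They were chosen by name, from what the genes are known to do. Earlier results of these data were known when these genes and the other lists below were chosen. Each of the 40 symbols matched 1 row of the 23235 rows in the deposited table. RNA was sequenced from mouse bone marrow progenitors in 2 samples, EtOH and 4OHT. Both came from C57B6 marrow that had been depleted of lineage-positive cells and had received the MIGR1 retroviruses HA-Hoxa9-ER and Flag-Meis1. Hoxa9 is a homeobox transcription factor that drives myeloid leukaemia together with its partner Meis1, and ER is the estrogen receptor's domain for hormone binding, which holds the fusion protein in the nucleus while 4-hydroxytamoxifen (4OHT) is present. The cells had been transformed in IL3 and 100 nM 4OHT, then washed and cultured for 72 h, in the EtOH sample with ethanol, the solvent, so that nuclear Hoxa9-ER was lost, and in the 4OHT sample with 100 nM 4OHT again. The EtOH cells therefore also still carried both viruses, and expression of Hoxa9-ER came from a retroviral vector and not from the cells' own gene. Each sample stands for 2 biological replicates and has 1 value per gene, so the values below have no replicate error.

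In a cycling cell most of these genes are transcribed late, with RNA that builds up through G2 and peaks at mitosis, and are silenced in G1 and in cells that leave the cycle. Their promoters are known for a pair of short elements: CCAAT boxes, bound by the trimeric factor NF-Y, and the cell cycle genes homology region (CHR), bound by the MuvB core complex. With the pocket proteins, MuvB forms the repressor DREAM in resting cells, and with B-Myb and Foxm1 it activates the same genes in G2. Bulk RNA of a mitotic gene thus follows both how many cells are cycling and how much RNA each of them holds, and these cannot be told apart here.

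The promoters of the listed genes were read from RefSeq on GRCm38.p6 (300 bases, of which 250 lie before the annotated start), which held 35 windows for 33 of the 40 genes. Ccna2, Cdc25c, Aurkb, Foxm1, Incenp, Kif20a and Tpx2 had no entry. The letters TTTGAA and TTCGAA were searched as the CHR and CCAAT as the CCAAT box, all on both strands, and CHR and CCAAT matches overlapped in the Cdca8 window alone. A CHR match stood in 28 of the 35 windows (80.0%), against 19.2% of all 32851 promoters in the table. A CCAAT match stood in 26 windows (74.3%), against 37.4% of all promoters, and both motifs together in 24 windows (68.6%), against 7.52%. The windows of Bub3 and of Prc1 come as overlapping pairs, and counted by gene 22 of 33 had both motifs. A match describes the letters only, and does not show that a factor was bound.

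The following windows are shown because Kif23 was the only gene of the 40 that passed the test, Ccnb2 and Cdk1 encode parts of the kinase that starts mitosis, Cenpa had the lowest log2 change, and Kif18a the highest after Kif23. Capitals mark CHR and CCAAT matches on either strand, and the sequences run 5′ to 3′ in the direction of the gene.
Kif23 (chr9:61946750-61947049, minus strand): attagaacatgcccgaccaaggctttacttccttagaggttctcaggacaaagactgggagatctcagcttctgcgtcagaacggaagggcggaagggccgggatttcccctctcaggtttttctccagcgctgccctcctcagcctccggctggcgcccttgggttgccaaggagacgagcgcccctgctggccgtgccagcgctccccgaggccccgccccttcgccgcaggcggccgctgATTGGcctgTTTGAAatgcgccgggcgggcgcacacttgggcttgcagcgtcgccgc
Ccnb2 (chr9:70421505-70421804, minus strand): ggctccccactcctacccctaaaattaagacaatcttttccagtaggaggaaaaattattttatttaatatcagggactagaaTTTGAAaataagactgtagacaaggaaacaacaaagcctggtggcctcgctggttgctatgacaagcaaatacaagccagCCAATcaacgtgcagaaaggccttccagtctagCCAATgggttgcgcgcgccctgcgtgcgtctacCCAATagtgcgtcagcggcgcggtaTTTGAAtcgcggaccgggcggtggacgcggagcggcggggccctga
Cdk1 (chr10:69352863-69353162, minus strand): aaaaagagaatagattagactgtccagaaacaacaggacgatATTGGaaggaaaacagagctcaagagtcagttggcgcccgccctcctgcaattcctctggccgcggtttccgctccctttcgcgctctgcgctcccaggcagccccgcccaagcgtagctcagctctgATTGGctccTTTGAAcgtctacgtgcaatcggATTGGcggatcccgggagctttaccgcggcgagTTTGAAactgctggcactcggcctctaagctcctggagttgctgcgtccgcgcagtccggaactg
Cenpa (chr5:30666636-30666935, plus strand): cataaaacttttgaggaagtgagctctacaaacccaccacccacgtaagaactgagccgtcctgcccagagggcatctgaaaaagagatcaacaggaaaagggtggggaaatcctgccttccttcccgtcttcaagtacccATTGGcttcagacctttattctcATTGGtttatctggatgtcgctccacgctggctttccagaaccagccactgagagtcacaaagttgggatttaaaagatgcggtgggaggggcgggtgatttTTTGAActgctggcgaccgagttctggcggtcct
Kif18a (chr2:109280488-109280787, plus strand): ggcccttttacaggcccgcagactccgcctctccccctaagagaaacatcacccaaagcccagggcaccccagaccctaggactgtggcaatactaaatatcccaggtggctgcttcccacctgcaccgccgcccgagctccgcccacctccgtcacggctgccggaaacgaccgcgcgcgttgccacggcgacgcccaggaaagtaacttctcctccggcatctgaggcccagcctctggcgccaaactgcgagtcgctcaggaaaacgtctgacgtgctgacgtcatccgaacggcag
In the Kif23 window an inverted CCAAT box ended 3 bases before the annotated start and the CHR began at base 3 after it. The Ccnb2 window held 3 CCAAT boxes, which began 87, 54 and 21 bases before the start, ahead of a CHR that began at base 5. In the Cdk1 window the CHR nearest to the start began 15 bases before it. Cenpa had 2 inverted CCAAT boxes and a CHR that began at base 17. Kif18a held neither motif, as did Birc5, Mad2l1, Nuf2 and Nusap1.

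**Figure D1:**
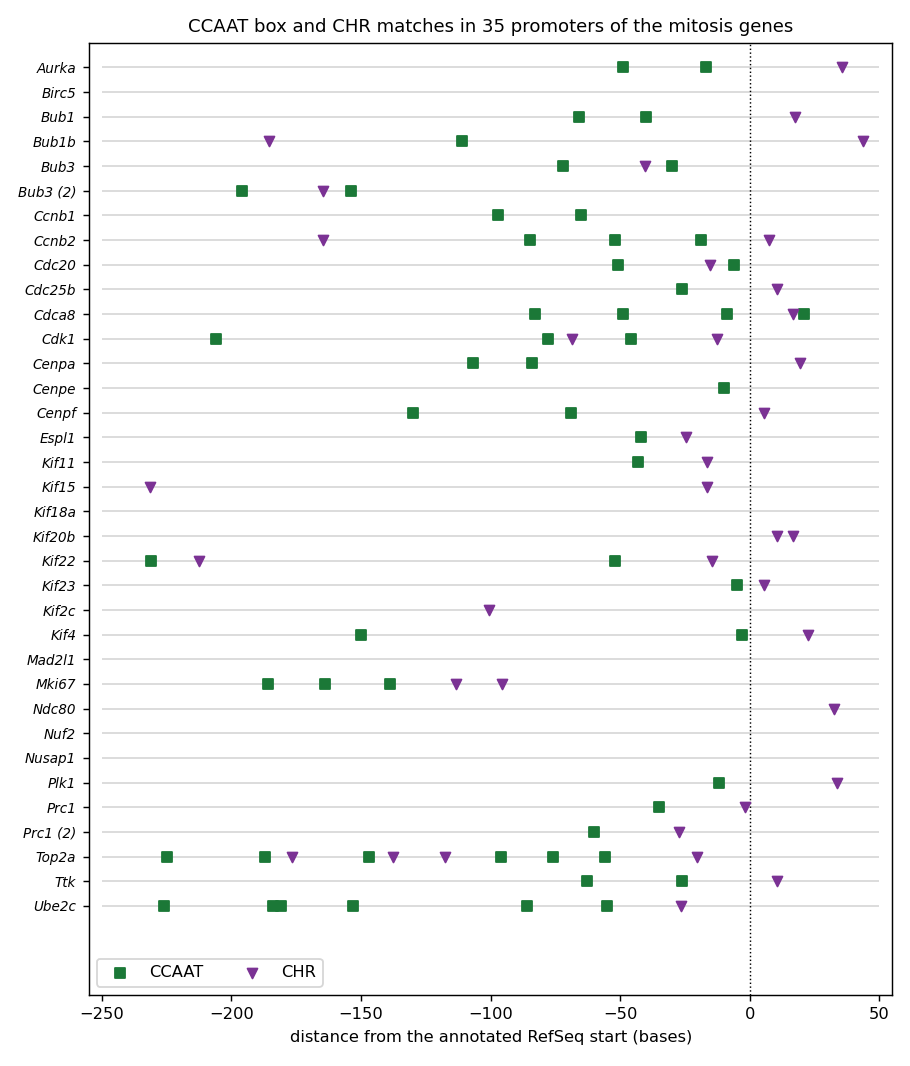
Positions of CCAAT box matches (squares) and CHR matches (triangles) in the 35 RefSeq promoter windows of 33 mitosis genes, in bases from the annotated start (dotted line); a second window of a gene is marked (2). Of the 38 CHR matches 26 began within 50 bases of the start, and of the 56 CCAAT matches 42 began 1 to 150 bases before it.

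Across the table the authors tested 11865 genes. They called 22.5% of them at a q-value of at most 0.05, with 12.0% higher and 10.5% lower in EtOH, and "rose" and "fell" are used below only of such genes. Levels are FPKM (fragments mapped to a transcript, scaled to its length and to all mapped fragments), and log2 changes are log2((FPKM EtOH + 1)/(FPKM 4OHT + 1)), so that a positive value is higher in EtOH and the change of low genes is understated. FPKM does not give read totals, so the depth is unknown. The FPKM values of all rows summed to 591496 in EtOH and 544802 in 4OHT. All 5 genes listed as progenitor markers were present, and they went both ways. How specific each of them is to progenitors was not tested. Cd34 fell to 45.8 FPKM in EtOH, against 124 FPKM in 4OHT. Ptprc (CD45) and Sfpi1 (PU.1) rose, to 64.5 and 167 FPKM in EtOH, against 33.9 and 77.5 FPKM in 4OHT. Kit, at 10.1 FPKM in EtOH and 7.39 FPKM in 4OHT, and Myb, at 127 FPKM in EtOH and 164 FPKM in 4OHT, did not pass. All 5 neutrophil markers rose, with a summed level of 16008 FPKM in EtOH and 51.3 FPKM in 4OHT, and so did all 3 eosinophil markers, at 4667 FPKM in EtOH and 126 FPKM in 4OHT, and all 4 basophil or mast cell markers, at 4610.0 FPKM in EtOH and 1191 FPKM in 4OHT. Of 4 monocyte or macrophage markers 3 rose, and the 4 summed to 209 FPKM in EtOH and 82.8 FPKM in 4OHT. Most of the EtOH sum was Lyz2, at 174 FPKM in EtOH and 40.5 FPKM in 4OHT. Csf1r and Mrc1 rose only to 2.10 and 1.92 FPKM in EtOH, against 0.347 and 0.0839 FPKM in 4OHT. Cd68 was lower in EtOH, at 30.6 FPKM against 41.8 FPKM in 4OHT, and did not pass. Of the markers of other lineages, Pax5, Cd3e, Cd3g and Cd4 were listed at 0 in both samples. The part of these marker shifts in the mitosis values was not tested.

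The mitotic genes differed little between EtOH and 4OHT, while the granulocyte markers rose. Of the 40 genes, 1 rose (2.5%), none fell and 39 did not pass, against 22.5% called over all tested genes. The gene that rose was Kif23, a kinesin of the central spindle. The 40 genes summed to 1469.6 FPKM in EtOH and 1509 FPKM in 4OHT, a ratio of 0.974, or 0.248% of all FPKM in EtOH and 0.277% in 4OHT. The log2 changes had a median of -0.02 and quartiles of -0.13 and 0.08, and 17 values were higher and 23 lower in EtOH. That split turned with the scaling. It was 8 higher and 32 lower with all FPKM summing alike in both samples, and 25 higher and 15 lower with the typical gene set to no change. The sums of all FPKM, used for that first scaling and for the percentages above, include the granulocyte markers. Of these, the neutrophil markers alone summed to 16008 FPKM in EtOH and 51.3 FPKM in 4OHT. All 40 reached 1 FPKM in at least 1 sample, and the 11022 genes of the table that did so had a median of -0.06 and quartiles of -0.25 and 0.18. Going by the unadjusted p of the authors' deposited table, at 0.05, Kif23 was again the only one of the 40 to pass, against 31.5% of all tested genes. Kif23 also passed with a q-value of at most 0.01, as did 16.1% of tested genes, and with a ratio of at least 1.5 added to the rule, as did 17.1%.

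The levels spanned a wide range, and their order was close in both cultures. Ube2c was the most abundant, at 136 FPKM in EtOH and 143 FPKM in 4OHT, followed by Top2a in both. The lowest was Kif18a, at 5.92 FPKM in EtOH and 4.66 FPKM in 4OHT. In EtOH these ends lay at percentiles 94.7 and 29.2 of the 11022 genes. Of the 40 genes, 37 kept their place in the order to within 3 positions. The largest shift was 6 positions, that of Kif23, which was the 28th most abundant in EtOH and the 34th in 4OHT. Neighbours in the order cannot be separated by replicate spread, since no replicate values were used.

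**Figure D2:**
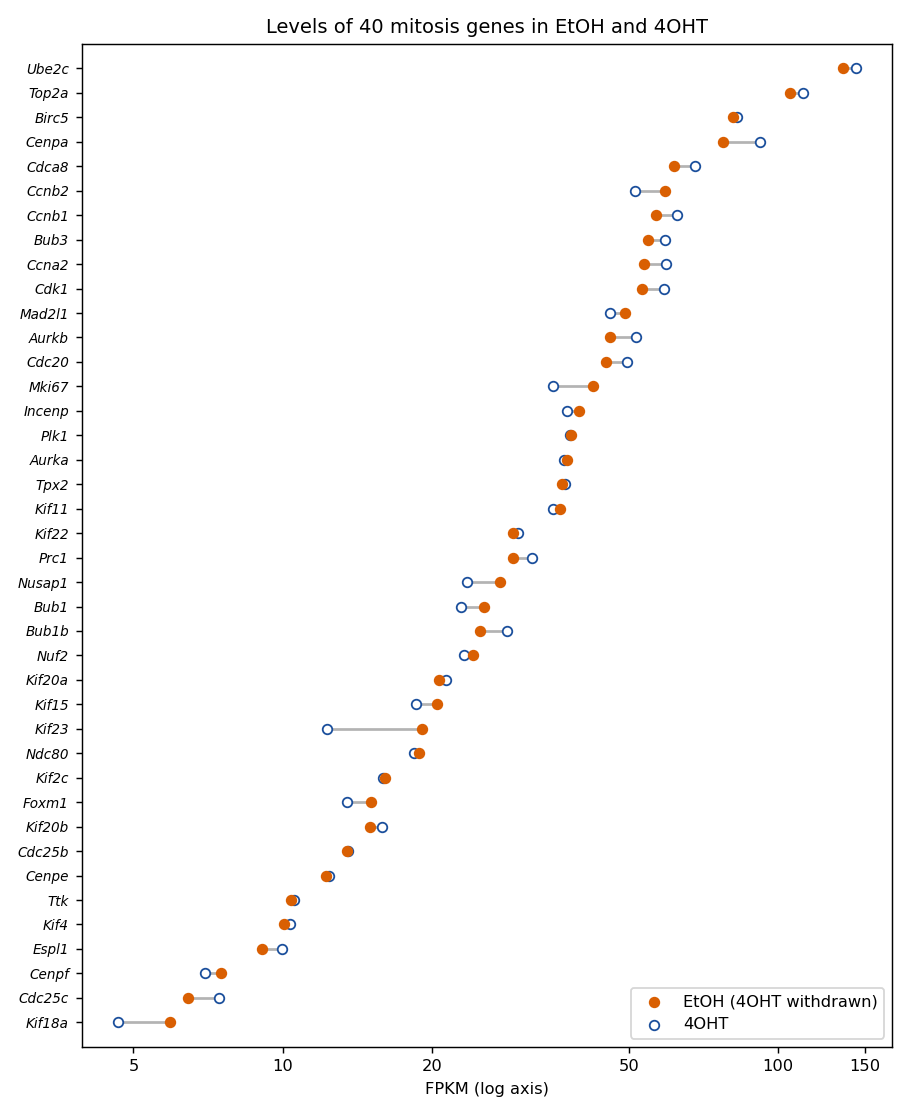
FPKM (log axis) of the 40 mitosis genes in EtOH (filled) and 4OHT (open), ordered by the EtOH level, with a line joining the values of a gene; there is 1 value per sample and no error bar. The widest gap on this axis is that of Kif23, at 19.1 FPKM in EtOH and 12.3 FPKM in 4OHT, and 37 of the 40 genes lie within 1.2-fold.

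Genes that start mitosis showed no shared direction. Cdk1, the mitotic kinase, lay at 53.1 FPKM in EtOH and 58.8 FPKM in 4OHT. Its cyclin partner Ccnb1 lay at 56.7 FPKM in EtOH and 62.5 FPKM in 4OHT, and Ccna2, the cyclin of S phase and early mitosis, at 53.5 FPKM in EtOH and 59.4 FPKM in 4OHT. All 3 were slightly lower in EtOH, with log2 changes of -0.15, -0.14 and -0.15. The Ccna2 locus in the table is a joint one with Exosc9, which lay at 23.4 FPKM in EtOH and 28.3 FPKM in 4OHT. Ccnb2, the other B-type cyclin, was on the opposite side, at 59.1 FPKM in EtOH and 51.4 FPKM in 4OHT (log2 change 0.20). Ccnb2 was thus the higher B-type cyclin RNA in EtOH and Ccnb1 in 4OHT, although neither passed the test. The authors' deposited table gave Ccnb2 a q-value of 0.40 and Ccnb1 one of 0.57. Those values compare EtOH with 4OHT, and the order of these cyclins within a sample was not tested. Cut into words of 50 bases, the Ccnb1 transcripts shared 23.4% of their sequence with other genes, chiefly a pseudogene, so the level of Ccnb1 is less certain.

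The kinases that act beside Cdk1 hardly differed. Plk1, the polo-like kinase of centrosomes and kinetochores, lay at 38.2 FPKM in EtOH and 38.0 FPKM in 4OHT, and Aurka, the centrosomal aurora kinase, at 37.5 FPKM in EtOH and 36.9 FPKM in 4OHT. The phosphatases that switch Cdk1 on were lower in abundance than the kinase. Cdc25b lay at 13.5 FPKM in EtOH and 13.6 FPKM in 4OHT, and Cdc25c at 6.44 FPKM in EtOH and 7.43 FPKM in 4OHT. Foxm1, the forkhead factor that activates many of these genes, lay at 15.1 FPKM in EtOH and 13.5 FPKM in 4OHT (log2 change 0.15). None of the 9 genes of this group passed, and their median log2 change was -0.01.

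The chromosomal passenger complex corrects the attachment of chromosomes to the spindle and later guides cytokinesis. Its kinase Aurkb lay at 45.7 FPKM in EtOH and 51.7 FPKM in 4OHT, with a log2 change of -0.17. Birc5 (survivin) and Cdca8 (borealin), which target the complex to centromeres, lay at 81.2 and 61.7 FPKM in EtOH, against 82.7 and 67.9 FPKM in 4OHT. The scaffold Incenp, the least abundant RNA of the complex in both samples, lay at 39.7 FPKM in EtOH and 37.6 FPKM in 4OHT. None of the 4 passed, and the direction of Incenp and Birc5 turned with the scaling between samples.

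The spindle assembly checkpoint holds back anaphase until every kinetochore is attached. Its kinase Bub1 lay at 25.5 FPKM in EtOH and 22.9 FPKM in 4OHT (log2 change 0.15), while its relative Bub1b (BubR1) lay at 25.0 FPKM in EtOH and 28.3 FPKM in 4OHT (log2 change -0.17). Bub1 was thus the slightly higher of these relatives in EtOH and Bub1b in 4OHT. With no replicate values this order cannot be told from replicate spread, and it was not tested. Mad2l1, which blocks Cdc20, lay at 49.2 FPKM in EtOH and 45.9 FPKM in 4OHT, and Bub3, the partner of both Bub kinases, at 54.6 FPKM in EtOH and 59.2 FPKM in 4OHT. Ttk (Mps1), the kinase that starts the signal, was the least abundant of the group, at 10.4 FPKM in EtOH and 10.6 FPKM in 4OHT. None of the 5 passed the test.

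At the centromere, Cenpa, the histone variant that marks it, had the lowest log2 change of all 40 genes, at 77.3 FPKM in EtOH and 92.1 FPKM in 4OHT. Its log2 change of -0.25 did not pass; the authors' deposited table gave a p-value of 0.0891 and a q-value of 0.244. Ndc80 and Nuf2, which pair in the complex that grips microtubules, lay at 18.8 and 24.2 FPKM in EtOH, against 18.4 and 23.2 FPKM in 4OHT. The motor Cenpe lay at 12.3 FPKM in EtOH and 12.4 FPKM in 4OHT. Cenpf, a large protein of the outer kinetochore, lay at 7.52 FPKM in EtOH and 6.98 FPKM in 4OHT. Apart from Cenpa, the genes of this group stayed between log2 changes of -0.02 and 0.09.

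The 9 kinesins held the genes with the highest log2 changes. Kif23 (Mklp1), on chromosome 9 at 61765085 to 61794606 (mm9), forms the centralspindlin complex with Racgap1 and bundles microtubules between the separating chromatids. It rose to 19.1 FPKM in EtOH, against 12.3 FPKM in 4OHT. The FPKM ratio was 1.55, the log2 change 0.59, and the authors' deposited table gave a q-value of 0.000823. Only 0.470% of its words were shared with other genes, and its locus overlaps no other expressed row. Kif18a, which damps the movement of aligned chromosomes, had the next largest log2 change, 0.29, but at 5.92 FPKM in EtOH and 4.66 FPKM in 4OHT it did not pass (q-value of 0.25, from the authors' deposited table).

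The other kinesins differed less. Kif11 (Eg5), which pushes the spindle poles apart, lay at 36.4 FPKM in EtOH and 35.2 FPKM in 4OHT. Kif15, which can share that task, lay at 20.5 FPKM in EtOH and 18.6 FPKM in 4OHT. Neither passed, and the chromosome-arm motors Kif22 and Kif4 were closer still. Kif22 lay at 29.1 FPKM in EtOH and 29.8 FPKM in 4OHT, and Kif4, which also works at the midzone, at 10.1 FPKM in EtOH and 10.3 FPKM in 4OHT. Kif2c (Mcak), which takes microtubules apart at centromeres, lay at 16.1 FPKM in EtOH and 16.0 FPKM in 4OHT. The cytokinesis kinesins Kif20a (Mklp2) and Kif20b did not pass. Kif20a lay at 20.7 FPKM in EtOH and 21.3 FPKM in 4OHT, and Kif20b at 14.98 FPKM in EtOH and 15.9 FPKM in 4OHT. In the table the Kif20a locus is a joint one with Cdc23 and Brd8, so its coordinates are not those of the gene alone.

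Genes of spindle assembly, mitotic exit and chromosome structure did not pass either. Nusap1, which bundles spindle microtubules, lay at 27.5 FPKM in EtOH and 23.6 FPKM in 4OHT (log2 change 0.21), in a joint locus with Oip5. Tpx2, the activator of Aurka, lay at 36.6 FPKM in EtOH and 37.2 FPKM in 4OHT, and the midzone bundler Prc1 at 29.1 FPKM in EtOH and 31.9 FPKM in 4OHT. Prc1, which recruits motors to the same midzone as Kif23, was on the opposite side of 0 from it. The 3 genes of mitotic exit were all slightly lower in EtOH. Ube2c, the ubiquitin-conjugating enzyme of the anaphase-promoting complex (APC/C), had a log2 change of -0.08. Cdc20, its activator, lay at 45.0 FPKM in EtOH and 49.5 FPKM in 4OHT, with 10.4% of its words shared with other genes and a joint locus with Elovl1. Espl1 (separase), the protease that cuts cohesin, lay at 9.07 FPKM in EtOH and 9.99 FPKM in 4OHT. Mki67, the proliferation antigen Ki-67 that coats mitotic chromosomes, lay at 42.2 FPKM in EtOH and 35.1 FPKM in 4OHT. This log2 change of 0.26, the third highest of the 40, did not pass, although the authors' deposited table gave it the lowest q-value after Kif23, 0.209. Top2a, which untangles chromatids, lay at 106 FPKM in EtOH and 113 FPKM in 4OHT.

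**Figure D3:**
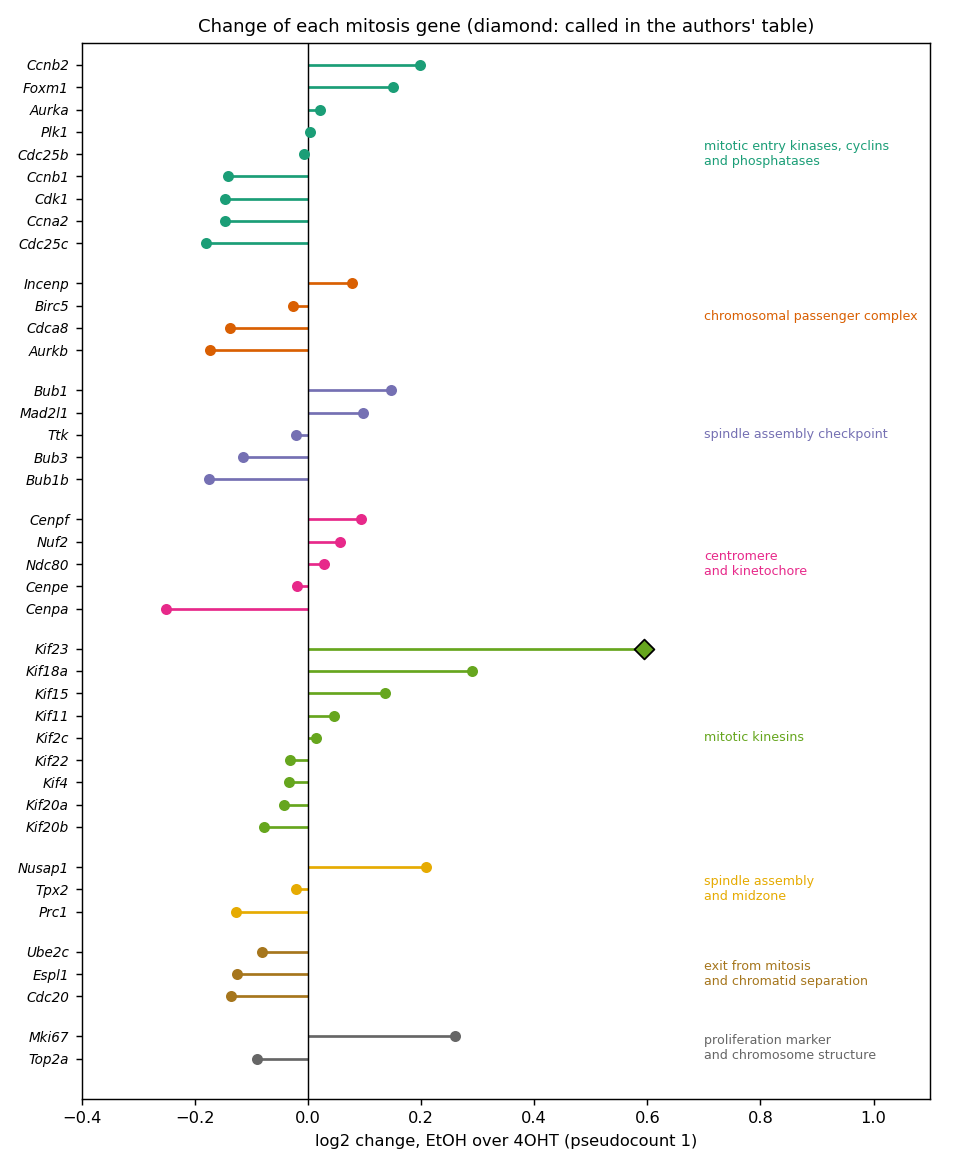
Log2 change of each of the 40 mitosis genes, EtOH over 4OHT with a pseudocount of 1, by role; the diamond marks the gene that the authors' deposited table calls. Kif23 stands at 0.59, and the other 39 lie between -0.25 and 0.29.

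The size of a change that the authors' test could call bounds what these counts say. Of the 40 genes, 22 lay within 1.1-fold and 37 within 1.2-fold, and the FPKM ratio went past 1.2 in Kif23, Kif18a and Mki67 alone. Among the 6932 genes whose levels fell in the range of the 40 in both samples, 41.4% differed by over 1.2-fold. Of those genes 6902 were tested and 19.3% called, and the smallest change called was 1.28-fold. Of genes in that range that differed by 1.3- to 1.4-fold 41.9% were called, and of those that differed by 1.5- to 1.6-fold 92.1%. A change under 1.28-fold in a mitotic gene was therefore not detectable with these data, and the 39 genes that did not pass are not shown to be equal in EtOH and 4OHT.

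**Figure D4:**
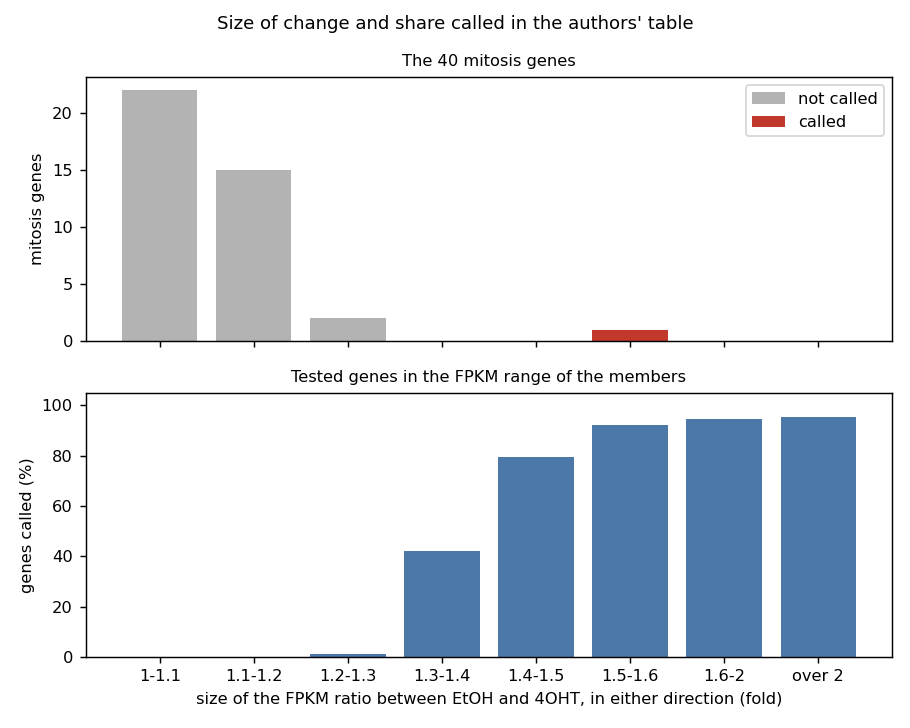
Number of mitosis genes by the size of their FPKM ratio in either direction (top, called genes in red) and the share of the 6902 tested genes in the same FPKM range that the authors called (bottom, %). No gene below 1.2-fold was called, and 37 of the 40 mitosis genes lie there.

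Genes with and without both promoter motifs spanned overlapping ranges of change. The 22 genes with both a CHR and a CCAAT match had a median log2 change of -0.03, between -0.25 and 0.59. The 11 genes without both had a median of 0.03, between -0.14 and 0.29. Levels were higher where both stood, with medians of 36.9 FPKM in EtOH and 35.1 FPKM in 4OHT, against 20.5 FPKM in EtOH and 18.6 FPKM in 4OHT in the genes without both. These are descriptions of 33 genes and were not tested.

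Most regulators of these promoters did not pass the test either. Of 16 genes of the DREAM, MuvB and NF-Y complexes none rose and 1 fell (6.25% called, against 22.5% over all tested genes). Their median log2 change was -0.09, with 5 values higher and 11 lower in EtOH. The gene that fell was E2f4, the E2F factor of the repressive DREAM complex, to 36.2 FPKM in EtOH, against 50.2 FPKM in 4OHT (log2 change -0.46). E2f5, its relative, had a larger difference at a low level, 2.15 FPKM in EtOH and 4.18 FPKM in 4OHT, and did not pass. Mybl2 (B-Myb), the activating partner of MuvB, lay at 30.6 FPKM in EtOH and 30.9 FPKM in 4OHT. The pocket proteins Rbl1 (p107) and Rbl2 (p130) lay at 14.8 and 17.1 FPKM in EtOH, against 15.9 and 18.3 FPKM in 4OHT. Lin54, the DNA-binding MuvB subunit, lay at 7.29 FPKM in EtOH and 7.43 FPKM in 4OHT, and Nfya of NF-Y at 20.6 FPKM in EtOH and 22.6 FPKM in 4OHT. E2f5, Mybl2, Rbl1, Rbl2, Lin54 and Nfya were named after their values were seen.

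A further 136 mitosis genes in 6 lists were followed beside the 40, and 4 rose, 6 fell and 126 did not pass. That is 7.35% called, against 22.5% over all tested genes, and their median log2 change was -0.01. No gene of the 30 other centromere and kinetochore genes passed. By the authors' deposited table and its unadjusted p, at 0.05, 1 was higher and 1 lower. At that unadjusted p, 31.5% of all tested genes passed in either direction. Of the 18 regulators of G2 and mitotic entry none passed either, with 1 higher and 0 lower at the unadjusted p. Of the 23 genes of the APC/C, its coactivators and checkpoint partners, 1 fell (4.35% called, against the same 22.5%). It was the small APC/C subunit Anapc10, which fell to 3.49 FPKM in EtOH, against 5.34 FPKM in 4OHT.

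Of the 10 called genes outside the 40, 6 were among the 31 other spindle, motor and centrosome genes, of which 2 rose and 4 fell. These are 19.4% of that list, near the 22.5% called over all tested genes. The Nek-family kinase Nek6 rose to 14.7 FPKM in EtOH, against 9.57 FPKM in 4OHT (log2 change 0.57), while the centrosomal kinase Nek2 fell (-0.44). The augmin subunit Haus4 (-0.47) and the microtubule depolymerase Kif2a (-0.46) fell too. Of 19 condensin and cohesin genes 1 rose (5.26% called, against the same 22.5%). It was the cohesin subunit Stag2, which rose to 41.3 FPKM in EtOH, against 28.6 FPKM in 4OHT (log2 change 0.52).

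The main partners of Kif23 in cytokinesis did not pass the test. Of 15 other cytokinesis genes 1 rose and 1 fell (13.3% called, against 22.5% over all tested genes). Myh9, the heavy chain of non-muscle myosin that also drives the shape changes of migrating leukocytes, rose to 148 FPKM in EtOH, against 83.6 FPKM in 4OHT (log2 change 0.82). The centriole protein Cntrob fell to 5.30 FPKM in EtOH, against 8.10 FPKM in 4OHT. Racgap1, the partner of Kif23 in centralspindlin, lay at 29.0 FPKM in EtOH and 27.8 FPKM in 4OHT. The exchange factor Ect2, which centralspindlin brings to the cell equator, lay at 19.4 FPKM in EtOH and 22.3 FPKM in 4OHT, and the abscission protein Cep55 at 14.8 FPKM in EtOH and 18.5 FPKM in 4OHT. None of these 3, named after their values were seen, passed the test, and whether their changes differ from that of Kif23 cannot be tested with 1 value per sample.

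The genes of S phase and the inhibitors of cyclin-dependent kinases were followed as other parts of the cell cycle. Of 40 S phase genes, of which 39 were tested, 1 rose and 1 fell (5.13% called, against 22.5% over all tested genes), and their median log2 change was -0.04. The gene that rose was Ccne1, a cyclin of the entry into S phase (0.56), and the gene that fell Fen1, the nuclease that trims Okazaki fragments (-0.47). Of 7 kinase inhibitor genes, of which 6 were tested, 3 rose and none fell, against 12.0% of all tested genes higher in EtOH. The difference between these lists was not tested. Cdkn2a, which encodes p16 and Arf, rose to 51.6 FPKM in EtOH, against 7.43 FPKM in 4OHT, and its neighbour Cdkn2b (p15) to 20.2 FPKM in EtOH, against 4.12 FPKM in 4OHT. Cdkn1a (p21), a target of p53, rose to 99.5 FPKM in EtOH, against 63.2 FPKM in 4OHT. Cdkn1b, Cdkn2c and Cdkn2d did not pass, and Cdkn1c lay under 0.1 FPKM in both samples and was not tested. Levels of these inhibitors and of the mitotic genes come from the same mixed cell population, and whether they occur in the same cells was not measured.

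**Figure D5:**
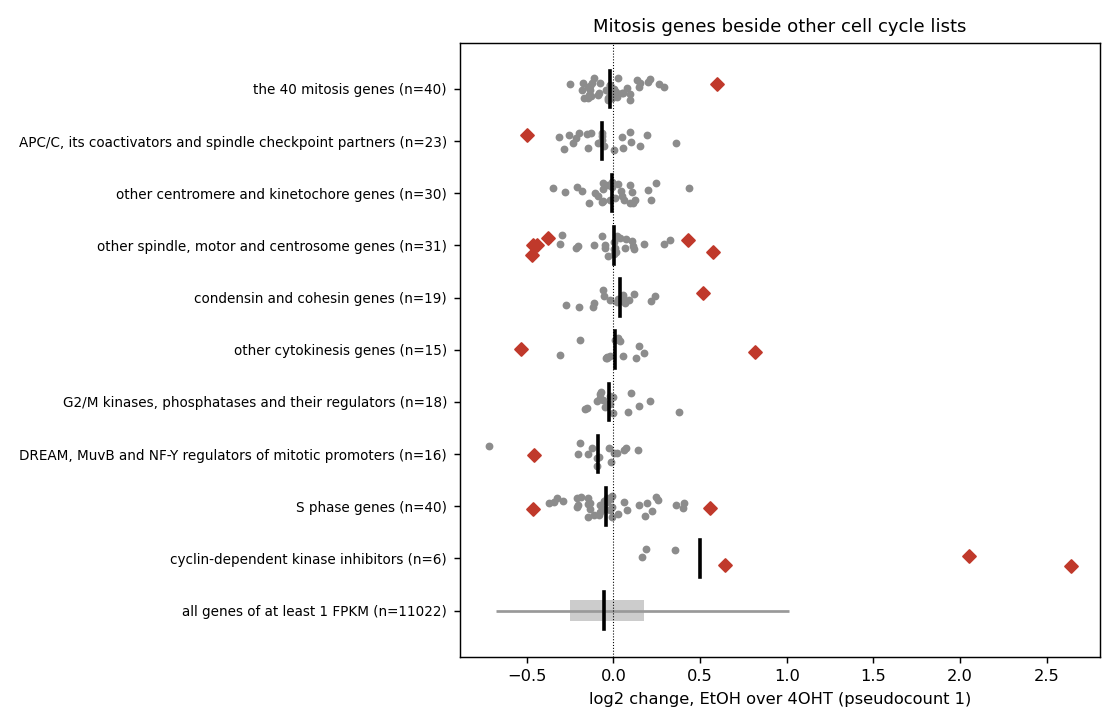
Log2 change (EtOH over 4OHT, pseudocount 1) of the genes of at least 1 FPKM in the 40 mitosis genes and in 9 other cell cycle lists; red diamonds are genes called in the authors' deposited table, black bars are medians, and the lowest row gives the quartiles (box) and the 5th to 95th percentiles (line) of all 11022 genes. The median of the 40 genes is -0.02 and that of the 6 measured kinase inhibitor genes 0.50.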

How the data were processed

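Per the labels' protocols, TruSeq libraries were made from column-purified, DNase-treated total RNA. CASAVA 1.8.2, Bowtie2 2.0.0.7 and Cuffdiff 2.0.2 and the mm9 build are named in the submitters' processing notes, while the sources used here do not give the annotation, the scaling between libraries or how replicates were combined. Per the file headers, the authors deposited 1 FPKM value for each condition, the ratio of the EtOH value to the 4OHT value, and the p-value and q-value of that comparison. Adjusting the authors' p-values over their 11865 tested rows by Benjamini-Hochberg gave their q-values to within 1.7e-06. FPKM is relative to the whole library and gives no read total.

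With 1 value per condition no test across samples was possible here, so a gene was called where the authors' deposited q-value was at most 0.05. Log2 changes used a pseudocount of 1, and medians were taken over genes that reached 1 FPKM in at least 1 condition. All 40 genes are named, with the called members of the other lists (up to 4 each). The members and lists were chosen with earlier results of these data known. Older symbols were matched through RefSeq names for 7 genes of the other lists, and for Sfpi1 among the markers. Shared 50-base words were counted against GENCODE M21 transcripts. Python 3.11.15 and pandas were used. Of the steps, only the log2 change and the Benjamini-Hochberg adjustment were tested on simulated data. Alternatives changed the call rule, the pseudocount, the filter, the scaling and the promoter window. Coordinates of loci are those of the table on mm9 with starts counted from 1, and coordinates of promoters are on GRCm38.p6.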

Additional observations from a re-analysis of the deposited data

How the results depend on the processing

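The counts of 1 gene higher, 0 lower and 39 not passing held under every call rule tried: a q-value of at most 0.01, an added ratio of at least 1.5, and an unadjusted p of at most 0.05. The median log2 change of the 40 genes kept within 0.1 of its value with a pseudocount of 0.1 or 5 and with no filter. Scaling mattered more. With the EtOH values scaled so that all FPKM sum as in 4OHT, the median of the 40 was -0.13 and that of all genes -0.16, and 7 genes differed by over 1.2-fold, 1 higher (Kif23) and 6 lower (Aurkb, Bub1b, Ccna2, Cdc25c, Cdk1 and Cenpa). With EtOH scaled so that the typical gene of at least 5 FPKM had no change, the median of the 40 was 0.04, and 5 genes, all higher, differed by over 1.2-fold. Relative to all genes the 40 stayed slightly above the median under both. Each scaling applied a single factor to every EtOH value, 0.921 and 1.05 respectively. The 40 and all genes therefore moved together, and their order could hardly change. Kif23 stayed higher in EtOH throughout, with ratios of 1.43 and 1.62 under these scalings. Factors of this size could not turn its deposited ratio of 1.55, so its direction here is no separate support. The share of promoters with both motifs was 65.7%, against 3.58% of all promoters, when only 150 bases before the start were used. No paired analysis was possible because each condition has 1 value. Leaving out a replicate was likewise not possible, and the spread between replicates is not known here.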

Other observations

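CCAAT boxes at a spacing of 31 to 34 bases stood in 6 of the 35 member promoters (17.1%), those of Aurka, Ccnb1, Ccnb2, Cdca8, Cdk1 and Ube2c, against 1.2% of all 32851 promoters. This spacing was chosen after the sequences were seen. In Ccnb2 it occurs between the first and middle and between the middle and last of the boxes that begin 87, 54 and 21 bases before the start. None of these 6 genes passed the test. As deposited, Ccnb2 and Aurka were higher in EtOH and Ccnb1, Cdca8, Cdk1 and Ube2c lower, and Aurka, at a log2 change of 0.02, turned to -0.09 with the FPKM sums made equal.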
